A study of Mus musculus with 6 samples.

Results

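Polycomb repressive complex 1 (PRC1) is represented here by 9 genes chosen by symbol: the RING-type ubiquitin ligases Ring1 and Rnf2, the PCGF protein Bmi1, the chromobox genes Cbx2, Cbx6, Cbx7 and Cbx8, and the polyhomeotic genes Phc1 and Phc2. All 9 were found among the 49997 genes of the count table, and all 9 were among the 21445 genes tested after a filter on low counts. The rule is a list of symbols with no threshold on a measured value, and it was drawn up with earlier results of these data known. Other subunits, such as Phc3 and the remaining PCGF genes, are not members and are described with the partners of the complex.

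PRC1 places a single ubiquitin on histone H2A, a mark of repressed chromatin. RING1 or RNF2 supplies the ligase activity together with a PCGF protein. In canonical complexes a CBX protein binds methylated histone H3 laid down by Polycomb repressive complex 2 (PRC2), and a PHC protein links complexes to each other. In blood, BMI1 is known for its need in stem cell self-renewal. CBX7 is known as the CBX protein of self-renewing stem cells, and CBX2 and CBX8 are known for opposing roles in them.

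Long-term haematopoietic stem cells (LT-HSCs), which renew themselves in bone marrow and give rise to all blood lineages, were taken from 4-month-old mice of strain C57BL/6J and sorted by flow cytometry into cells with low and with high Asrij. Asrij is the protein of the gene Ociad1. Bulk RNA-seq gave 3 libraries of each population, and no treatment is given for either. The name of the deposited count table carries the letters KI after an abbreviation of Asrij. The labels do not explain it, so whether all 6 libraries share an engineered allele is not known here. Nor do the labels say how Asrij was read in the sort, whether the cells of several mice were pooled, or whether each library is a separate animal. The p-values therefore measure the spread between these libraries alone, and that spread may be technical.

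Library totals ran from 24707012 to 72855125 counts and were higher in the 3 Asrij high libraries. The members had between 341 and 13164 counts per library, so counting error was small beside the spread between libraries. Levels are given as CPM, counts brought to a common library total, with libraries scaled by the trimmed mean of M-values (TMM). A positive log2 fold change means a higher level in Asrij high, and ± after one gives its standard error (SE). Adjusted p-values come from edgeR's quasi-likelihood test and are adjusted over all 21445 genes, with a threshold of 0.05. Ociad1 was at 57.9, 50.3 and 46.7 CPM in Asrij low replicates 1 to 3 and rose to 86.9, 77.6 and 76.3 CPM in Asrij high replicates 1 to 3, so the groups did not overlap (log2 0.64 ± 0.16, adjusted p = 0.0115). This call was lost with library totals or upper quartile factors as the scaling (adjusted p = 0.133 and 0.0834) and without Asrij high replicate 1 (0.0831).

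Both populations had transcripts of LT-HSC markers, at unequal levels. Of 10 such markers 9 were lower in Asrij high, and their summed level was 1247 to 1462 CPM in the Asrij low libraries and 421 to 686 CPM in the Asrij high libraries. Kit was the largest part of that sum in every library (563 to 754 CPM in Asrij low and 305 to 456 CPM in Asrij high). Kit was 1.80-fold lower, while the 10 markers ran from 1.73-fold lower (Ctnnal1, not called) to 8.43-fold lower (Procr). All 12 G2/M genes, which mark dividing cells, were higher in Asrij high (summed 2793 to 4221 CPM, against 348 to 651 CPM). Markers of other cell types were present as well. The 10 erythroid markers summed to 8330 to 59070 CPM in Asrij low and 3934 to 6875 CPM in Asrij high. Haemoglobin genes dominated that sum, and the list was split, with 4 markers lower in Asrij high and 4 higher. Hba-a1, Hbb-bs, Hbb-bt and Alas2 were lower, while Car1 (16.6-fold), Tfrc (7.25-fold), Epor (4.44-fold) and Klf1 (4.02-fold) were higher. The 12 granulocyte and monocyte markers summed to 903 to 3798 CPM in Asrij low and 4332 to 7280 CPM in Asrij high. Of these 12, 5 were higher in Asrij high, Mpo (17.8-fold) and Elane (17.7-fold) among them. Another 2 were lower, Mmp9 (9.27-fold) and Csf1r (3.34-fold), and 5 did not pass the test. Of all tested genes, 21.7% were called higher in Asrij high and 17.7% lower. The 10 stromal markers summed to 186 to 1122 CPM in Asrij low and 28.5 to 46.5 CPM in Asrij high, and the 10 B and plasma cell markers to 86.6 to 246 CPM and 17.9 to 25.2 CPM. Asrij low replicate 3 was the highest library in the erythroid, stromal and B cell sums. Within Asrij high, replicate 2 had the highest LT-HSC sum (686 CPM, against 427 and 421 CPM in replicates 1 and 3) and the lowest G2/M sum. It also had the highest megakaryocyte sum (1061 CPM, against 374 and 329 CPM).

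Of the 9 PRC1 genes, Cbx7 and Phc1 were lower in Asrij high and the other 7 did not pass the test. That is 2 called members of 9, beside 39.4% of all tested genes called in either direction and 17.7% called lower. No member was called higher, where 21.7% of all tested genes were. The median log2 fold change of the 9 members was -0.28 and that of all tested genes was -0.02. Groups did not overlap for 4 members (Ring1 higher in Asrij high, and Cbx6, Cbx7 and Phc1 lower), beside 55% of all tested genes, 30.2% without overlap and higher and 24.8% without overlap and lower. In bulk RNA, fewer cells that express a gene and less RNA per cell cannot be told apart. The number of members called lower was 5 with upper quartile factors, which added Cbx2, Cbx6 and Rnf2, and 1 without Asrij low replicate 1, where Phc1 was lost. Of all calls 55.1% were higher in Asrij high, and 40.2% with library totals and 39.9% with upper quartile factors, scalings that moved the median of all genes by -0.268 and -0.273.

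**Figure D1:**
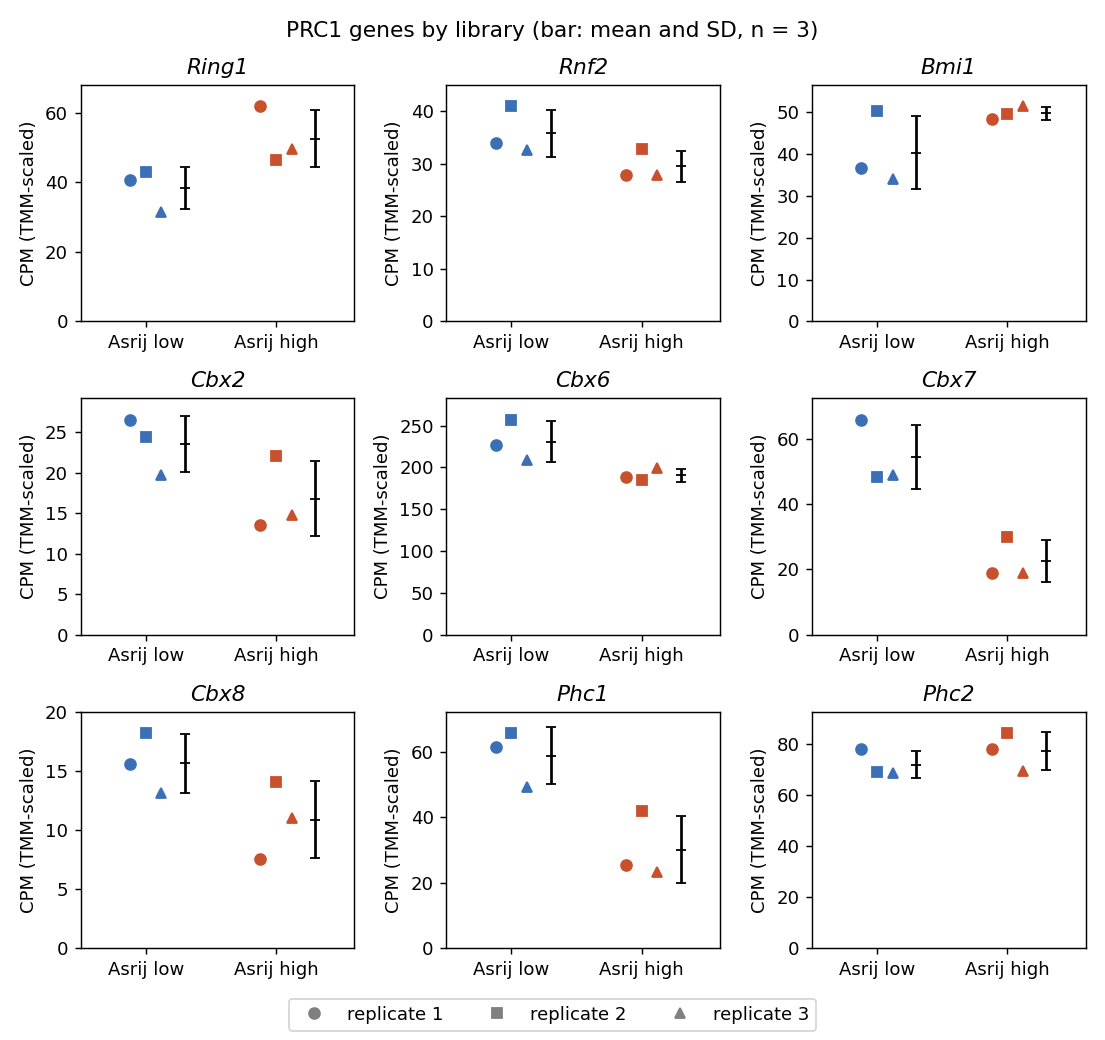
Level of each PRC1 gene in every library, in TMM-scaled CPM on an axis from 0. Points are libraries (shape gives the replicate, colour the group) and the black bars are the mean and SD of 3 libraries. Cbx7 and Phc1 separate the groups, with all Asrij low libraries of Cbx7 at 48.5 CPM or more and all Asrij high libraries at 29.9 CPM or less.

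The catalytic genes Ring1 and Rnf2 had differences of opposite sign, and neither passed the test. Ring1 had 40.6, 42.9 and 31.5 CPM in Asrij low replicates 1 to 3 and 61.9, 46.5 and 49.5 CPM in Asrij high replicates 1 to 3. Every Asrij high library lay above every Asrij low library, with replicate 2 nearest (log2 0.46 ± 0.20, adjusted p = 0.0921). The unadjusted 95% interval of the difference ran from 0.02 to 0.90.

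Rnf2, the ligase that is often the more active of the pair in embryonic cells, measured 33.9, 40.9 and 32.7 CPM across Asrij low replicates 1 to 3, compared with 27.8, 32.9 and 27.8 CPM across those of Asrij high. Asrij high replicate 2 lay just above Asrij low replicate 3, so the groups overlapped (log2 -0.28 ± 0.19, adjusted p = 0.268, interval -0.70 to 0.14). With upper quartile factors Rnf2 was past the threshold (log2 -0.55, adjusted p = 0.0343).

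Bmi1, the PCGF subunit known for HSC self-renewal, did not pass the test. It had 36.6, 50.3 and 34.0 CPM in Asrij low replicates 1 to 3 and 48.4, 49.6 and 51.4 CPM in Asrij high. The Asrij high libraries lay close together, and Asrij low replicate 2 lay among them (log2 0.30 ± 0.19, adjusted p = 0.241, interval -0.13 to 0.74). Without Asrij low replicate 2 the difference was 0.53 and past the threshold (adjusted p = 0.0391). With library totals or upper quartile factors it was 0.037 and 0.041.

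Among the chromobox genes, which give canonical PRC1 its reader of methylated H3, Cbx7 was 2.41-fold lower in Asrij high. It had 65.9, 48.5 and 49.0 CPM in Asrij low replicates 1 to 3 and 18.9, 29.9 and 18.9 CPM in Asrij high. All 3 Asrij high libraries lay below all 3 Asrij low libraries, and replicate 2 was the highest of them (log2 -1.27 ± 0.24, adjusted p = 0.00345). Cbx7 stayed past the threshold under all 14 alternatives, at -1.08 to -1.62, the latter without Asrij low replicate 3 and Asrij high replicate 2.

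The other 3 chromobox members had lower means in Asrij high and did not pass the test. Cbx2 was at 26.5, 24.3 and 19.7 CPM in the Asrij low libraries, in replicate order, against 13.6, 22.1 and 14.7 CPM in the Asrij high ones, where replicate 2 lay within the Asrij low range (log2 -0.49 ± 0.26, adjusted p = 0.159, interval -1.06 to 0.09). Without Asrij high replicate 2 it was past the threshold (-0.70, adjusted p = 0.0494). Cbx8 measured 15.6, 18.3 and 13.2 CPM across Asrij low replicates 1 to 3, compared with 7.55, 14.1 and 11.1 CPM across those of Asrij high, with replicate 2 again highest (log2 -0.52 ± 0.29, adjusted p = 0.181, interval -1.17 to 0.13).

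Cbx6, a less studied chromobox gene, measured 226, 257 and 209 CPM across Asrij low replicates 1 to 3, compared with 188, 184 and 200 CPM across those of Asrij high. Its groups did not overlap, but the gap between them was small (log2 -0.28 ± 0.15, adjusted p = 0.179, interval -0.62 to 0.07). It was past the threshold with library totals (-0.55, adjusted p = 0.0232) and with upper quartile factors (-0.54, adjusted p = 0.0113).

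The polyhomeotic genes, whose proteins carry the SAM domain that joins PRC1 particles, differed from each other. Phc1 had 61.7, 65.8 and 49.2 CPM in Asrij low replicates 1 to 3 and 25.3, 42.0 and 23.2 CPM in Asrij high. The groups did not overlap, and Asrij high replicate 2 lay nearest to Asrij low (log2 -0.97 ± 0.25, adjusted p = 0.0140), a 1.95-fold lower level. Leaving out Asrij low replicate 1 ended the call (-0.90, adjusted p = 0.0551), and over the alternatives the adjusted p ran from 6.88e-04 to 0.0551.

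Phc2 was at 78.0, 69.2 and 68.7 CPM in the Asrij low libraries, in replicate order, against 78.1, 84.4 and 69.5 CPM in the Asrij high ones. The groups overlapped over most of their range (log2 0.10 ± 0.15, adjusted p = 0.623, interval -0.24 to 0.45). The sign of this difference turned with library totals and with upper quartile factors (-0.17 in each) and without Asrij low replicate 3 and Asrij high replicate 2 (-0.017).

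Cbx7, Phc1, Cbx2, Cbx8, Rnf2 and Phc2 each had their highest Asrij high value in replicate 2, the library with the highest LT-HSC and megakaryocyte marker sums and the lowest G2/M sum of its group. Of these 6, Phc2 alone had a higher mean in Asrij high than in Asrij low. The part of these marker lists in the values was not tested. Without Asrij high replicate 2, Cbx7 was at -1.49 and Phc1 at -1.24. Erythroid, stromal and B cell marker sums were highest in Asrij low replicate 3, and without that library Cbx7 was at -1.37 and Phc1 at -1.11, both past the threshold.

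Upstream sequence is shown for Cbx7, the member with the largest difference, and for Ring1 and Bmi1, which had higher means in Asrij high. Phc2 also had a higher mean there, and its 3 windows are not shown. The sequences are from RefSeq (GRCm38.p6), 5′ to 3′ on the gene's strand, before the annotated start site and without annotated exon bases. For Cbx7, which also has a longer gene model, this leaves the 128 bases at chr15:79932769-79932896 (minus strand). Ring1 is shown for chr17:34024681-34024930 (minus strand) and Bmi1 for chr2:18676768-18677017 (plus strand), 250 bases each. Capitals mark matches on either strand to the E-box CACGTG, to the SP/KLF motif GGGGCGG or to the CCAAT box, spelled as it is named.
Cbx7: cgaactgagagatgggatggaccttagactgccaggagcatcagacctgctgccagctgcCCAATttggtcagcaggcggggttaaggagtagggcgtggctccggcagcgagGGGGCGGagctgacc
Ring1: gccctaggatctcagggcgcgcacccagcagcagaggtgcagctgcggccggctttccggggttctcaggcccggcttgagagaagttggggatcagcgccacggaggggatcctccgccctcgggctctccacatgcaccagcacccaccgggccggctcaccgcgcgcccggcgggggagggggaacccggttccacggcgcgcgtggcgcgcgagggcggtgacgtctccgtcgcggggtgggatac
Bmi1: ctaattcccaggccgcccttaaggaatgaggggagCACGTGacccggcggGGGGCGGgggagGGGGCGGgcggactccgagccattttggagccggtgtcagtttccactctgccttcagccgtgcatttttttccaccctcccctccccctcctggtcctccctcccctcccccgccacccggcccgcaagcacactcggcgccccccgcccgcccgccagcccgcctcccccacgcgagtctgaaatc
The same search also covered the E2F motifs, TTTCCCGC or its variant TTTGGCGC, the ETS motif CCGGAAG and the TATA box TATAAA, over the 250 bases before each start site. The 8 members with an entry have 10 windows, 3 of them for Phc2. An SP/KLF match was in 6 of the 10 windows (Bmi1, Cbx6, Cbx7, Cbx8, Rnf2 and 1 of Phc2) and in 21.0% of all 32851 windows of this length. An E-box match was in 4 of the 10 (Bmi1, Cbx6, Cbx8 and 1 of Phc2), that of Cbx8 overlapping an SP/KLF match, and in 6.02% of all windows. A CCAAT box match was in 4 of the 10 (windows of Cbx7, Cbx8 and Phc2) and in 33.8% of all windows. An ETS match was in 1 of the 10 (Phc2) and in 6.91% of all windows. No member had an E2F or TATA box match, and those are in 1.30% and 12.4% of all windows. The windows of Cbx7, Ring1 and Bmi1 held 23, 30 and 21 CG dinucleotides, where the median of all windows is 6. Over the 10 windows the number ran from 1 to 34, both in windows of Phc2, and was 8 for Phc1. The motif shares of all windows were not matched for CG content. Windows of Phc1 and Cbx6 lie in annotated exons and are not printed. These matches are a description of letters, and the data do not measure binding.

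The 4 chromobox members lie in pairs. Cbx2 (chromosome 11, 119023019 to 119031275) and Cbx8 (119036303 to 119040913) are separated by 5027 bases. Cbx6 (chromosome 15, 79823898 to 79834333) lies 81470 bases from Cbx7 (79915804 to 79971143). Cbx7 and Cbx6 are therefore neighbours in one region, with log2 fold changes of -1.27 and -0.28. Ring1 lies on chromosome 17 (34020792 to 34024680), Rnf2 on chromosome 1 (151469398 to 151500991), Bmi1 on chromosome 2 (18677018 to 18686629), Phc1 on chromosome 6 (122317731 to 122340227) and Phc2 on chromosome 4 (128654655 to 128752881). Exon bases shared with another annotated gene were 5.31% for Cbx6 (with Npcd), 3.83% for Rnf2 (with Trmt1l) and 1.54% for Cbx7 (with Apobec3), and none for the other members.

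Levels were compared between genes as CPM per kilobase of exon, mean ± SD over 3 libraries. In Asrij low, Cbx6 was highest at 21.8 ± 2.27, above every other member in every library. Ring1 (11.8 ± 1.87), Phc1 (11.1 ± 1.64), Phc2 (10.2 ± 0.742) and Bmi1 (10.2 ± 2.20) followed and overlapped each other. Rnf2 (8.69 ± 1.08) and Cbx7 (8.39 ± 1.52) overlapped as well, and Cbx2 (5.52 ± 0.818) and Cbx8 (4.26 ± 0.692) were lowest.

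In Asrij high the order of the same quantity was different in its middle. Cbx6 (18.0 ± 0.752) and Ring1 (16.2 ± 2.52) overlapped at the top, followed by Bmi1 (12.5 ± 0.390), which lay above Phc2 (11.0 ± 1.06) in every library. Rnf2 (7.15 ± 0.711) and Phc1 (5.69 ± 1.94) overlapped. Cbx7 (3.48 ± 0.980), which lay above Cbx2 and Cbx8 in every Asrij low library, here lay between Cbx2 (3.95 ± 1.08) and Cbx8 (2.97 ± 0.893) with overlapping ranges. The exon lengths are those of GENCODE M21, and a shorter isoform in use would raise the value of its gene.

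**Figure D2:**
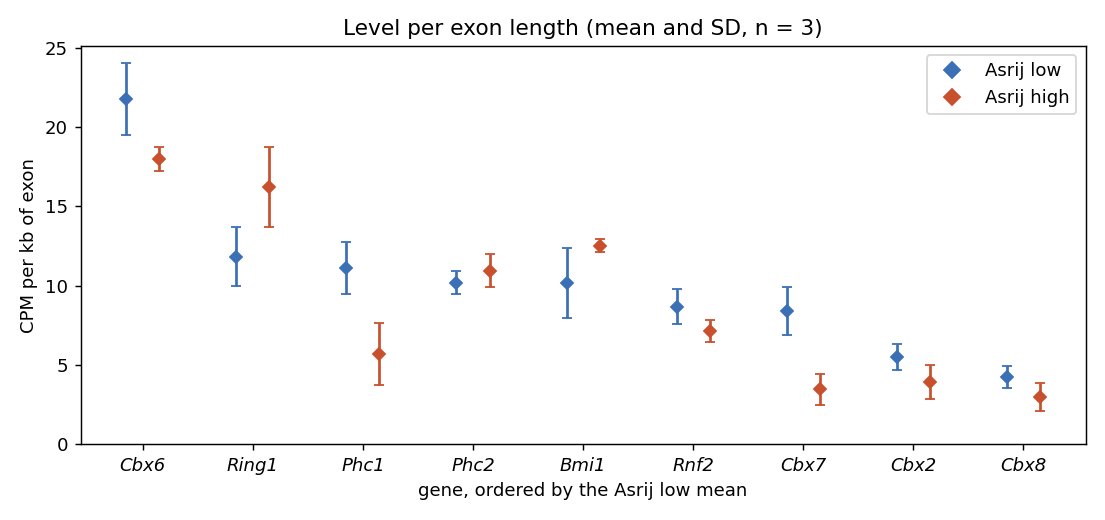
Level of the 9 PRC1 genes as CPM per kilobase of exon, ordered by the Asrij low mean, on an axis from 0. Diamonds are means and bars are the SD of 3 libraries. Cbx6 is highest in both groups, and Phc1 and Cbx7 lie lower in Asrij high than in Asrij low.

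Ratios between related genes were taken within each library, since these do not depend on how libraries are scaled. In all 6 gene pairs examined the groups did not overlap, beside 55% of all single tested genes. The share over all gene pairs was not computed. Each pair holds a gene whose own groups did not overlap (Ring1, Cbx7, Phc1 or Pcgf2), and Cbx7 is in 3 of them. The absence of overlap in the ratios is therefore no separate result. With 3 libraries against 3, the exact two-sided permutation test can give no p below 0.1, and each pair gave that p (also 0.1 after Benjamini-Hochberg adjustment over the 6 pairs). The ratios are therefore descriptions.

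The log2 ratio of Ring1 to Rnf2 counts was 0.26, 0.07 and -0.05 in Asrij low replicates 1 to 3 and 1.15, 0.50 and 0.83 in Asrij high, a 1.67-fold shift toward Ring1. That of Phc2 to Phc1 was 0.34, 0.07 and 0.48 in Asrij low and 1.62, 1.01 and 1.59 in Asrij high, a 2.16-fold shift toward Phc2. In both pairs Asrij high replicate 2 lay nearest to Asrij low.

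Cbx7 was lower against each of its 3 paralogues. Its log2 ratio to Cbx2 was 1.31, 0.99 and 1.32 in Asrij low and 0.48, 0.44 and 0.36 in Asrij high, where the 3 libraries, replicate 2 included, lay within a narrow range. Its ratio to Cbx8 had a mean of 1.79 ± 0.35 in Asrij low and 1.06 ± 0.27 in Asrij high (SD, n = 3), and its ratio to Cbx6 a mean of -2.09 ± 0.31 and -3.11 ± 0.42. The shifts were 1.72-fold, 1.66-fold and 2.03-fold for Cbx2, Cbx8 and Cbx6.

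Bmi1 was compared with Pcgf2, the closest paralogue and an alternative PCGF subunit of canonical PRC1. The log2 ratio of Bmi1 to Pcgf2 was 0.67, 1.12 and 0.29 in Asrij low and 2.29, 1.39 and 2.64 in Asrij high, a 2.66-fold shift toward Bmi1. Pcgf2 itself was at 23.0, 23.2 and 27.8 CPM in the Asrij low libraries, in replicate order, against 9.88, 18.9 and 8.25 CPM in the Asrij high ones. It was lower in Asrij high (log2 -0.999 ± 0.32, adjusted p = 0.0340), but the call was lost in 5 of the 6 fits that leave out 1 library, all but that without Asrij high replicate 2 (adjusted p up to 0.0935).

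**Figure D3:**
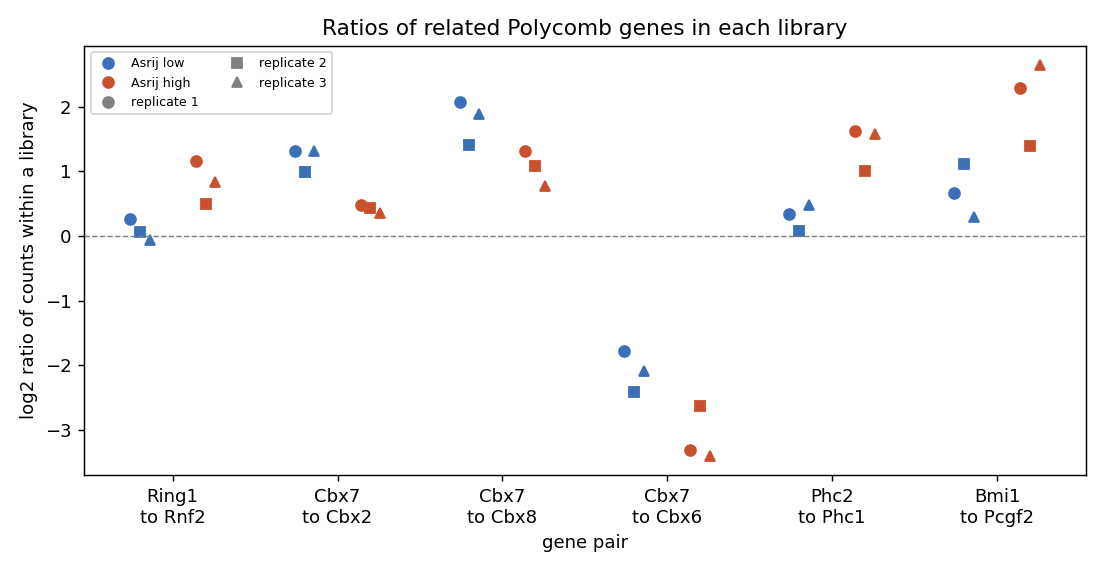
Log2 ratio of counts of 6 pairs of related Polycomb genes within each library. Points are libraries (shape gives the replicate, colour the group), and a value of 0 means equal counts. In every pair the Asrij low and Asrij high libraries do not overlap, and each pair holds a gene whose own levels do not overlap either. The ratio of Cbx7 to Cbx2 is between 0.36 and 0.48 in Asrij high.

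Of all tested genes, 21.7% were called higher and 17.7% lower in Asrij high. Outside the 9 members, a list of 33 further subunits and partners of canonical and variant PRC1 had 17 genes higher and 5 lower. The other 11 of the list did not pass the test (median log2 fold change of the list 0.50). The genes with the smallest p among those that rose were Tfdp1 (log2 1.72 ± 0.18, adjusted p = 2.97e-04), L3mbtl2 (1.67 ± 0.19), E2f6 (1.01 ± 0.17) and Cbx3 (1.21 ± 0.21). TFDP1, E2F6 and L3MBTL2 belong to the variant PRC1 built on PCGF6, and CBX3 is an HP1 protein found with it. TFDP1 also pairs with the E2F factors of the cell cycle. The G2/M genes, which mark dividing cells, were higher in the same libraries. The part of dividing cells in the difference of Tfdp1 was not tested. The genes with the smallest p among those that fell were Scml4 (-2.01 ± 0.44), Auts2 (-2.28 ± 0.61), Pcgf5 (-0.63 ± 0.19) and Pcgf2. Auts2 and Pcgf5 encode partners in a variant complex. The remaining PCGF genes had positive differences and were named after their values were seen. Pcgf6 was higher (0.90 ± 0.22, adjusted p = 0.0117). Pcgf1 (0.47 ± 0.27, adjusted p = 0.195) and Pcgf3 (0.35 ± 0.20, adjusted p = 0.190) did not pass the test. Auts2 lost its call when Asrij low replicate 1 or Asrij high replicate 3 was left out (adjusted p = 0.0557 and 0.0503). Pcgf5 lost its call in 4 such fits, with adjusted p = 0.0791 and 0.0672 when the omitted library was Asrij low 1 or 2, and 0.0748 and 0.0613 when it was Asrij high 1 or 3. The count of partners that rose was 9 without Asrij high replicate 1, 11 without Asrij high replicate 3 and 9 with library totals, and the count that fell was 8 with library totals. Leaving out a library brought that lower count to 1 (Asrij low replicate 1, Asrij high replicate 3) or 2 (Asrij low replicate 2, Asrij high replicate 1). Phc3, the third polyhomeotic gene, measured 86.7, 89.6 and 97.0 CPM across Asrij low replicates 1 to 3, compared with 65.6, 70.9 and 72.6 CPM across those of Asrij high, and the groups did not overlap, although it missed the threshold (log2 -0.39 ± 0.15, adjusted p = 0.0596).

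Enzymes and readers that act on ubiquitinated H2A went both ways. Of 12 such genes 11 were tested. In Asrij high 5 were higher and 2 lower (median 0.40), beside 21.7% and 17.7% of all tested genes. Dnajc2, a reader of the mark, rose (log2 1.29 ± 0.21, adjusted p = 0.00186), and so did the deubiquitinase genes Usp16 (1.15 ± 0.21), Bap1 (0.72 ± 0.18) and Brcc3 (1.03 ± 0.27). Usp22 (-0.97 ± 0.22) and Usp3 (-0.61 ± 0.17) fell. Without Asrij high replicate 1, Bap1, Brcc3 and Usp3 were not past the threshold (adjusted p = 0.0506, 0.0592 and 0.0717). Brcc3 was not past it without Asrij high replicate 3 either (0.0653), nor Bap1 with library totals (0.0838) or Usp3 without a count filter (0.0501). The list had 2 genes higher without Asrij high replicate 1 and 3 without Asrij high replicate 3. Asxl3 was not tested. It had 0, 26 and 67 counts in Asrij low replicates 1 to 3 and 2, 0 and 2 in Asrij high replicates 1 to 3, so the groups overlapped.

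PRC2 lays down the H3 methylation read by CBX proteins. It had 6 of 12 genes higher and 2 lower in Asrij high (median 0.46), beside 21.7% and 17.7% of all tested genes. Its catalytic subunit gene Ezh2 rose from 62.8 ± 8.80 to 243 ± 48.2 CPM (SD, n = 3; log2 1.95 ± 0.20, adjusted p = 2.98e-04). Suz12 (1.35 ± 0.21), Rbbp7 (1.37 ± 0.23) and Rbbp4 (1.05 ± 0.20) rose as well. The paralogue Ezh1 (-0.78 ± 0.21) and the accessory gene Phf1 (-1.54 ± 0.24) fell, and Ezh1 lost its call in the fit that omits Asrij low replicate 1 (adjusted p = 0.0644).

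Most of the listed chromobox genes outside PRC1 differed in sign from Cbx7. Of the 6 listed genes (Cbx1, Cbx3, Cbx5, Cdyl, Cdyl2 and Mphosph8), 5 were higher and 0 lower in Asrij high, beside 21.7% and 17.7% of all tested genes. The median of the 6 was 1.05, and Cbx3 among them was also counted with the PRC1 partners. Cbx5, which encodes HP1 alpha, rose from 302 ± 50.3 to 997 ± 174 CPM (SD, n = 3; log2 1.72 ± 0.21, adjusted p = 4.84e-04). Cbx1 rose by 1.33 ± 0.23 and Cdyl by 0.89 ± 0.17. The member not called was Cdyl2 (-0.33 ± 0.23, adjusted p = 0.282), which was named after its value was seen. The difference between these lists and the 9 members was not tested.

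**Figure D4:**
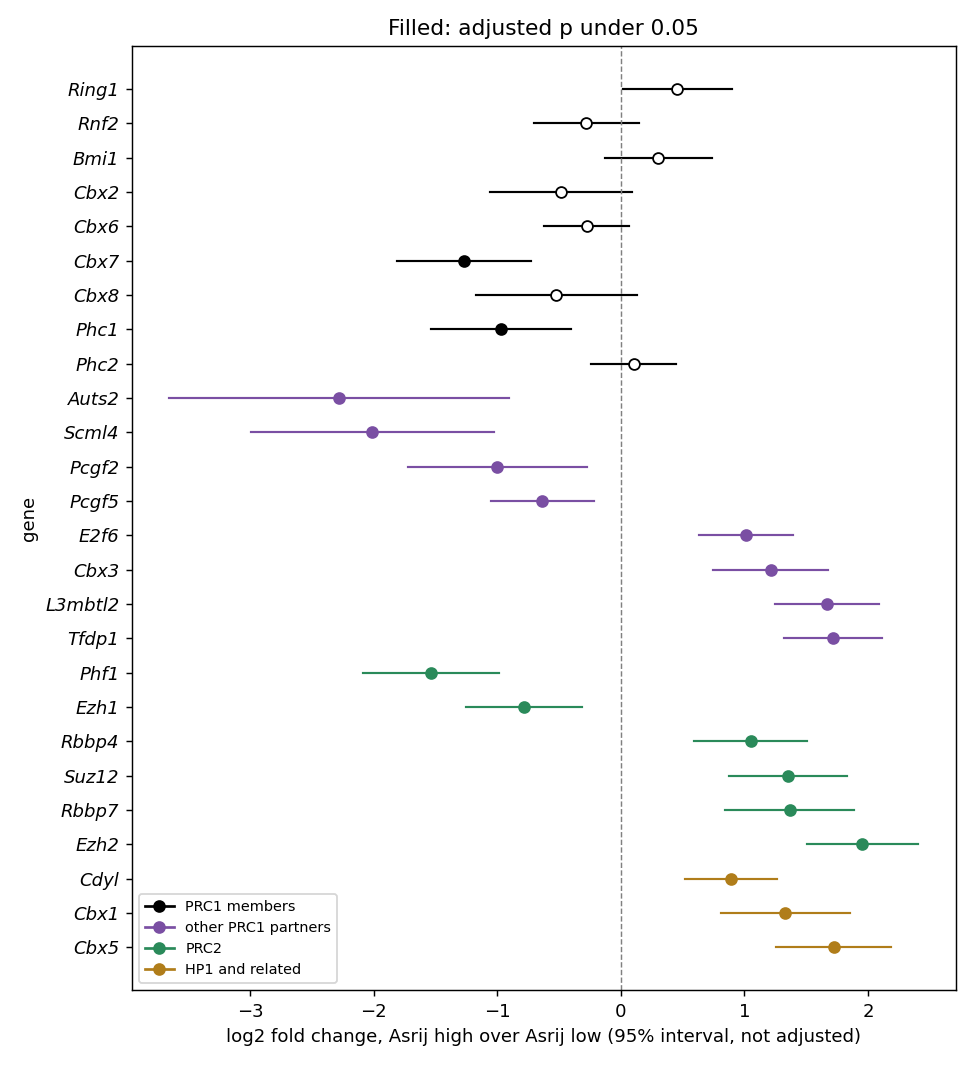
Log2 fold change, Asrij high over Asrij low, of the 9 PRC1 genes and of the named genes of 3 related lists, with unadjusted 95% intervals. Filled points passed the test at an adjusted p under 0.05 and open points did not, and Cbx3 is shown once, with the PRC1 partners. Of the PRC1 genes only Cbx7 and Phc1 are filled, at -1.27 and -0.97, while Ezh2, Cbx5 and Tfdp1 lie above 1.7.

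Genes for which repression by BMI1 or PRC1 has been described in blood cells were mostly lower in Asrij high. Of 20 such genes 18 were tested. In Asrij high 14 fell and 2 rose (median -1.99), beside 17.7% and 21.7% of all tested genes. Cdkn2a, the best known target of BMI1, which encodes the cell cycle inhibitors INK4A and ARF, had 10 counts in Asrij low replicate 1 and 0 in the other 5 libraries, so its level was at or near the limit that these depths allow. Its neighbour Cdkn2b had 0 counts in every Asrij low library and 0, 4 and 10 in Asrij high replicates 1 to 3, and was not tested.

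Pax5 (log2 -4.52 ± 0.43, adjusted p = 2.30e-04), Cdkn1c (-2.92 ± 0.35), Ebf1 (-4.82 ± 0.82) and Hoxa9 (-1.82 ± 0.34) had the smallest p among the target genes that fell. Pax5 and Ebf1 are B lineage factors and also stand in the B and plasma cell list. Of that list 8 of 9 tested genes were lower in Asrij high, beside 17.7% of all tested genes. Hoxa9 is a stem and progenitor cell factor. Cdkn1c is an inhibitor gene of resting stem cells, and the LT-HSC markers moved the same way. The part of these cell types in the target genes was not tested. Of the 2 that rose, the inhibitor gene Cdkn2c was at 2.02 ± 0.28 (adjusted p = 8.32e-04). Trp53 was at 0.55 ± 0.16 (adjusted p = 0.0236) and was not past the threshold under 6 of the 14 alternatives, 3 of which leave out a single library (Asrij low replicate 3, Asrij high replicate 1 or 3; adjusted p = 0.0877, 0.118 and 0.0672).

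For 4 members the genes with the most similar profile were sought among 10654 tested genes with a mean of at least 5 CPM. Likeness was the root mean square difference of log2 CPM, centred on each gene's mean, over the 6 libraries. Genes chosen this way follow the member's own values, so their differences between the groups are set by the choice and are no separate result. The nearest to Cbx7 were Pex11g (0.07), L3mbtl3 (0.08) and Slc37a1 (0.08). L3mbtl3, a gene with malignant brain tumour repeats, fell from 34.4 ± 5.03 to 13.1 ± 3.07 CPM (SD, n = 3; log2 -1.39, adjusted p = 0.00217). The nearest to Rnf2 were Nfya (0.03), Nfkbil1 (0.04) and Galnt7 (0.04). Those nearest to Bmi1 were Tmem123 (0.04), Fam210a (0.05) and Zfp266 (0.05), and to Cbx8 Zfp566 (0.10), Ldlrad3 (0.10) and Zscan30 (0.11). Among the members themselves, Cbx6 and Rnf2 were most alike (0.11), followed by Cbx2 and Cbx8 (0.16), and Cbx7 and Ring1 were least alike (0.94).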

How the data were processed

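RNA of sorted LT-HSCs was measured by RNA-seq in 6 libraries. Per the labels' protocols, RNA was depleted of ribosomal RNA and libraries were stranded, although another label gives polyA RNA as the molecule. The authors deposited whole-number counts per gene symbol, not normalized. HISAT2, Subread, SAMtools and FastQC are named with build mm10, per the submitters' processing notes. Not given in the sources used here are tool versions, gene annotation, strand setting and the handling of multi-mapping reads.

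Counts were tested with edgeR 4.0.16 in R 4.3.3 (quasi-likelihood, robust, TMM, group only) on genes kept by filterByExpr (minimum count 10, minimum total 15), with Benjamini-Hochberg adjustment. Libraries of the same group differed by more than sampling noise in every pair (chi-square 75.3 to 168 per degree of freedom). The members and lists were chosen with earlier results of these data known. Named genes were the members, Ociad1, and of each Polycomb list up to 4 called genes in each direction with the smallest p. Skp1a was matched to Skp1 through RefSeq synonyms. Ratios used counts with 0.5 added, and likeness used log2 CPM with a prior count of 2. Coordinates are RefSeq's on GRCm38.p6, the assembly behind mm10. Motifs were chosen after the data were seen. The pipeline was tested on simulated counts. The alternatives were other scalings, DESeq2 1.42.0, limma-voom (limma 3.58.1), no count filter, left-out libraries and a replicate block.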

Additional observations from a re-analysis of the deposited data

How the results depend on the processing

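Over 14 alternatives, Cbx7 kept its direction and its call, and Cbx8 and Ring1 were called in none. Library totals moved Cbx6 to -0.55 and past the threshold, and turned Phc2 to -0.17. Upper quartile factors gave 5 members lower, with Cbx2 at -0.75, Cbx6 at -0.54 and Rnf2 at -0.55 past the threshold and Phc2 at -0.17. With 1 library left out (or Asrij low replicate 3 and Asrij high replicate 2 together), 2346 to 3925 of all genes were lower, the fewest without Asrij high replicate 1, 0 to 1 members higher and 1 to 3 lower. The log2 fold changes then ran from 0.18 to 0.53 for Bmi1, -0.87 to -0.36 for Cbx2, -1.41 to -0.85 for Phc1 and -0.017 to 0.20 for Phc2. Cbx2 was past the threshold without Asrij high replicate 2, and Phc2 turned with both libraries left out. The causes of these changes were not tested.

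Same-numbered libraries of the 2 groups correlated at 0.0126, 0.046 and 0.225 in their deviations from the group means. Only replicate 3 correlated best with its own number. The labels do not say whether same-numbered libraries are paired, and with 3 libraries a group these correlations cannot decide it. With the replicate number as a block, 4475 genes were higher and 3613 lower, with 0 members higher and 2 lower, Cbx7 at -1.29 and Phc1 at -1.01.

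Depth did not limit the members, but 3 libraries a group leave intervals wide enough that the 7 uncalled genes cannot be taken as unchanged.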
